A study of Mus musculus with 38 samples.

Results

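The genes described here encode the nuclear subunits of the mitochondrial respiratory chain and of ATP synthase, with the assembly factors that share their names. Members were all genes whose symbol begins with Nduf, Uqcr, Sdha to Sdhd, Cox4 to Cox8 or Atp5, without pseudogenes. Of 111 matching genes, 9 carried pseudogene names and 4 more were annotated as processed pseudogenes, which left 98 of the 55487 genes in the count tables. They comprised 36 subunits of complex I, 4 of complex II, 8 of complex III, 20 of complex IV, 17 of complex V and 13 assembly or other factors. Ndufa4 and its paralogue Ndufa4l2 were counted with complex IV, where the NDUFA4 protein is found. Atp5o was listed under a pair of identifiers, and the second was at 0 in every library.

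The respiratory chain passes electrons from NADH (complex I) and succinate (complex II) through complex III to complex IV, which reduces oxygen to water. The proton gradient built on the way drives ATP synthase, complex V. Most subunits are encoded in the nucleus and a few in mitochondrial DNA, and several complex IV subunits have a common form and an isoform of muscle, testis, lung or low oxygen. In many cells hypoxia-inducible factor is known to raise Ndufa4l2, Cox4i2, the protease gene Lonp1 and the kinase gene Pdk1, which together reshape or slow respiration.

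The libraries came from 3 kinds of mouse cell. BV2 is a line of immortalised microglia, GL261 is a glioma line that here stably carried the plasmid pEGFP-N1, and wild-type bone marrow-derived macrophages (BMDM) are primary cells. Normoxia means 21% oxygen and hypoxia less than 0.1% oxygen, each held for 16 h. In the first experiment each kind was grown by itself or in co-culture, mixed as 2 GL261 for every BV2 cell, or as equal numbers of GL261 and BMDM. The second experiment used BV2 cells and BMDM with DMSO in normoxia, with DMSO in hypoxia, and with 10 nM panobinostat, a histone deacetylase inhibitor, in hypoxia only. BV2 medium, also in co-culture with GL261, held 2% fetal bovine serum and BMDM medium 10%. The serum of GL261 monoculture is not given in the sources used here. Comparisons of GL261 monoculture with co-culture or with BV2 may therefore also differ in medium. All cells were fixed in 3% glyoxal. Poly(A) RNA was sequenced. Each of the 18 groups had 2 libraries, except the BMDM co-culture groups with 3, giving 38 libraries. The labels do not say that replicates came from separate cultures or mice, so p-values measure only the spread between these libraries, which may be technical. How co-cultured cells were separated is not given in the sources used here.

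Library totals ran from 9634700 to 27238933 counts. Summed macrophage and microglial marker genes (12 genes) reached 3121 to 5934 CPM (read counts scaled to library size) in BV2 libraries and 4.79 to 45.8 CPM in GL261 libraries, where 2 to 7 of the 12 were at 0. In first-experiment BMDM the sum was 9029 to 22655 CPM with none at 0. The BMDM libraries of the second experiment stood apart: a list of 10 stromal and mural genes, added after the data were seen, summed to 2319 to 15554 CPM there, against 95.4 to 746 CPM in the first experiment. Partner RNA was estimated from genes specific to the partner cell type, as their median level relative to partner monoculture. It came to 0.565% to 2.33% of co-cultured BV2 libraries, 0.214% to 0.915% of co-cultured GL261 libraries and 1.34% to 5.94% of co-cultured BMDM libraries. Monocultures had at most 0.0571%, but the genes were chosen as low in these same libraries, so that value is no independent baseline. In such mixtures, fewer cells of a type and less RNA per cell cannot be told apart.

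Respiratory chain transcripts took a smaller share of the library in hypoxia in all 3 cell types of the first experiment. In BV2 monoculture their share of all gene counts went from 1.12% ± 0.0528 to 0.748% ± 0.0749 (SD, n = 2 per group), and in BV2 co-culture from 1.22% ± 0.0505 to 0.684% ± 0.0138. In GL261 it went from 0.965% ± 0.141 to 0.616% ± 0.0109 alone and from 1.04% ± 0.0555 to 0.537% ± 0.0203 in co-culture. In BMDM it went from 0.748% ± 0.0253 to 0.524% ± 0.0251 alone and from 0.758% ± 0.110 to 0.561% ± 0.0202 in co-culture (n = 3 per group). The groups did not overlap in this share in any of the 6 comparisons. In BMDM the sum after scaling between libraries moved less than the share. It was 6939 ± 262 CPM in normoxic and 5809 ± 173 CPM in hypoxic monoculture, and in co-culture it overlapped, with normoxic libraries at 7013, 6295 and 8356 CPM and hypoxic ones at 5567, 6324 and 5523 CPM. Complex V genes held the largest part in BV2 monoculture, 0.425% of counts in normoxia and 0.267% in hypoxia, followed by complex I with 0.270% and 0.185% and complex IV with 0.214% and 0.163%.

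**Figure D1:**
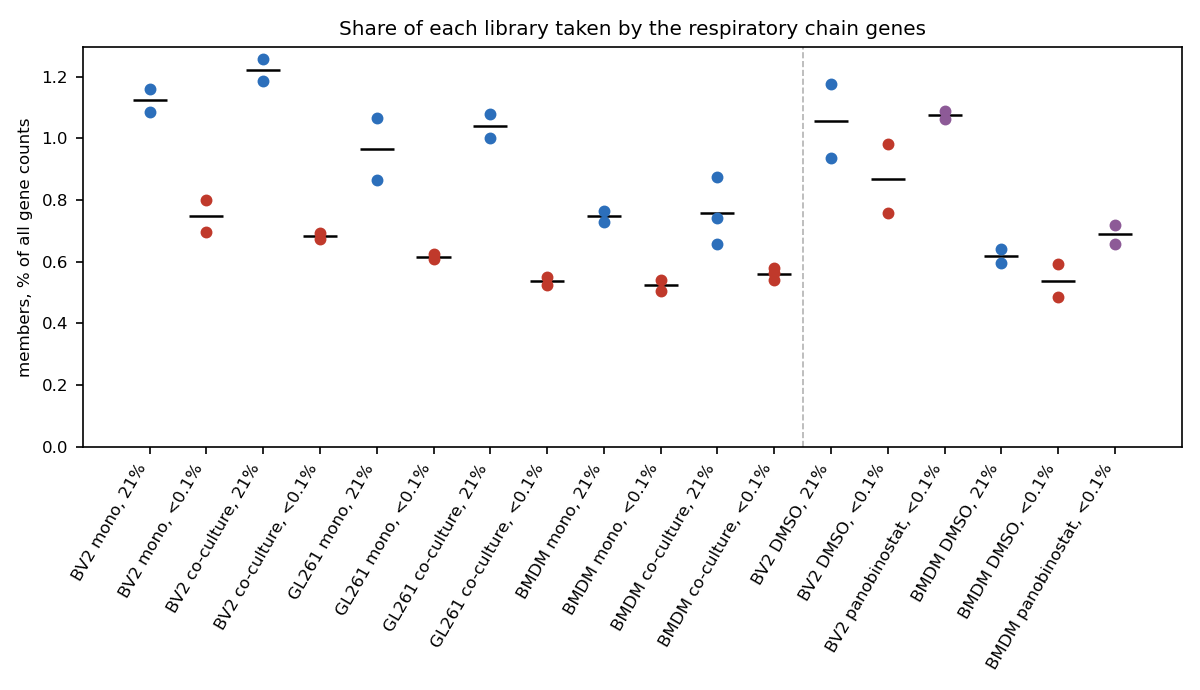
Percent of all gene counts taken by the 98 respiratory chain genes (vertical axis, from 0), one point per library and a bar at the group mean, blue for 21% oxygen, red for below 0.1% oxygen and purple for panobinostat below 0.1% oxygen. A dashed line separates the experiments, and in every monoculture and co-culture of the first the hypoxic libraries lie below the normoxic ones, as in BV2 alone (means 1.12% and 0.748%).

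Gene by gene, most members fell in the lines, and fewer were called in BMDM, where the number depended on the fit. A gene is called here when its adjusted p is below 0.05 over all genes tested. In BV2 monoculture 72 of 91 tested members fell and 3 rose, where 61.9% of all tested genes were called, 31% lower and 30.9% higher, with a median log2 change of -0.56 over members and 0 over all tested genes. In BV2 co-culture 78 fell and 2 rose (67.3% of all genes called, 32.1% lower and 35.2% higher), with a median of -0.88. In GL261 monoculture 62 of 94 fell and 1 rose (44.6% of all genes called, 21.4% lower and 23.2% higher, median -0.66), and in GL261 co-culture 75 fell and 1 rose (52.4% called, 25.6% lower and 26.8% higher, median -0.996). These member shares stand well above the background for falls and well below it for rises.

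In BMDM monoculture 17 of 94 tested members fell and 6 rose, where 23.9% of all genes were called, 10.6% lower and 13.3% higher, with a median of -0.32. In BMDM co-culture 39 fell and 7 rose (34.8% called, 17.3% lower and 17.5% higher, median -0.35). Replicates varied more in BMDM, with a biological coefficient of variation of 0.222 against 0.096 in BV2 and 0.133 in GL261. Fitted on the compared groups alone, BMDM monoculture had 54 called members in place of 23, and BMDM co-culture 25 in place of 46. The monoculture count rests on every one of its libraries: it was 5 without normoxic library 1, 9 without normoxic library 2, 6 without hypoxic library 1 and 5 without hypoxic library 2. Among named genes, the monoculture calls of Cox6b1, Cox6b2, Cox7a2l, Uqcrc1 and Atp5e were lost in 4 of 4 such fits, and those of Cox4i2 and Ndufa4 in 3. The co-culture count of 46 became 28 without normoxic library 3 and 30 without hypoxic library 1. All 17 members that fell in BMDM monoculture also fell in co-culture, and 9 members fell in all 6 comparisons: Ndufa12, Uqcr10, Cox5a, Cox6b1, Ndufa4, Atp5e, Atp5g3, Atp5o and Ndufaf2. No member rose in all 6.

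**Figure D2:**
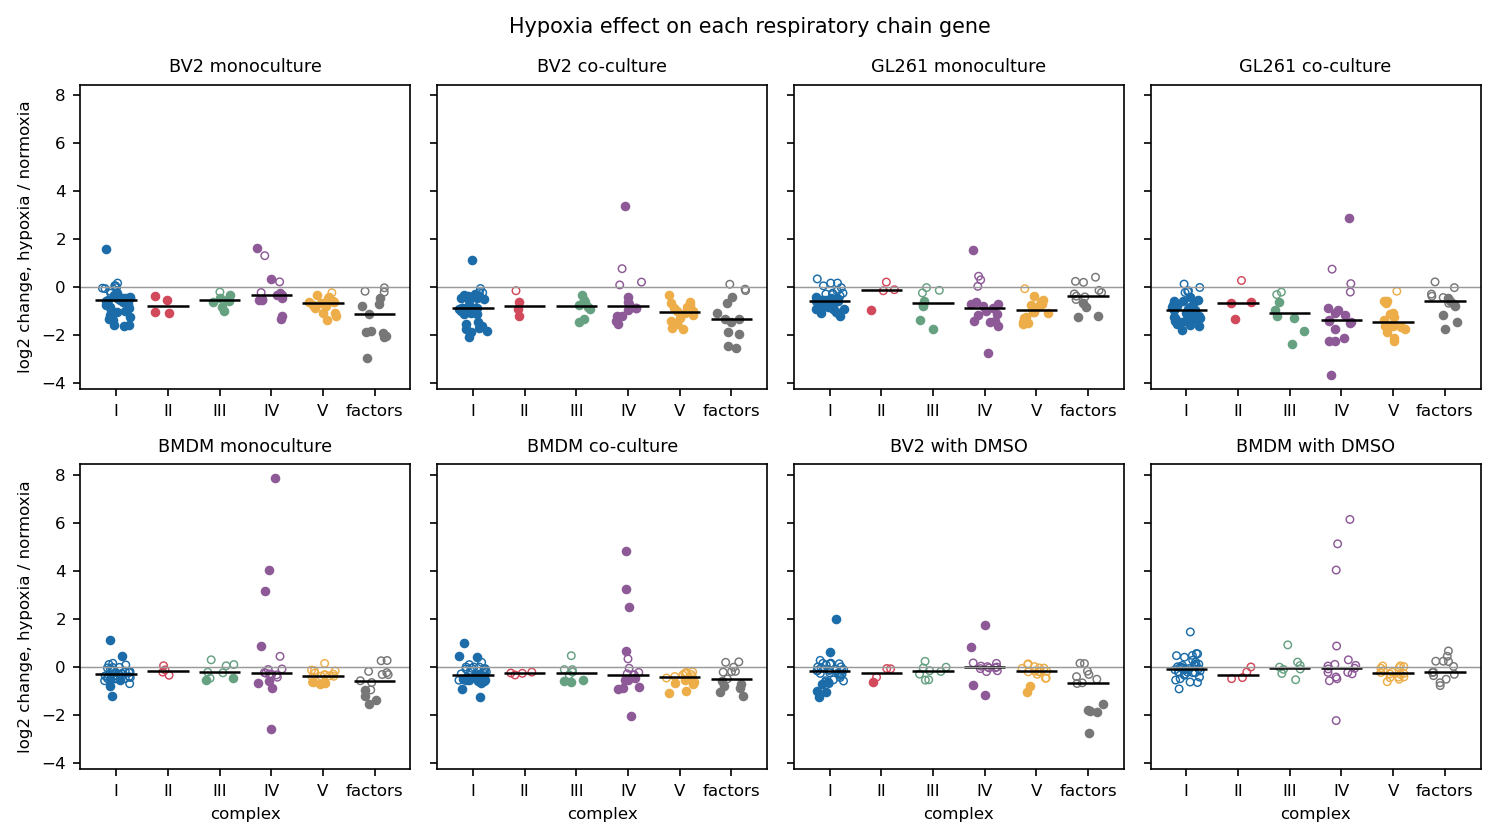
Log2 change between hypoxia and normoxia (vertical axis) of each tested member by complex (horizontal axis), 1 panel per comparison; filled points are called, open points are not, and bars are medians. In BV2 and GL261 cells most points of complexes I, III and V lie below 0, and the points far above 0 in the BMDM panels belong to complex IV isoforms; the highest point in BMDM monoculture is Ndufa4l2, which had 0 counts in normoxia, so its plotted value is set by the model's prior count.

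Most complex I subunits fell in the lines. In BV2 monoculture 27 of 36 fell (median -0.55), including 6 of the 7 core subunits, which form the electron path, and 21 of 29 accessory subunits. In BV2 co-culture the figures were 31 of 36 (median -0.88), 6 of 7 and 25 of 29. In GL261 24 fell alone (median -0.58) and 31 in co-culture (median -0.97), and in BMDM 4 fell alone and 16 in co-culture. The 4 of 36 in BMDM monoculture are near the 10.6% of all genes that were lower there.

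Ndufs8, a core subunit that holds iron-sulfur clusters (ENSMUSG00000059734, chr19:3908863-3912774, GRCm38), measured 119 and 114.5 CPM in normoxic BV2 monoculture and 43.3 and 31.7 CPM in hypoxia. Both hypoxic libraries lay far below both normoxic ones, but genes named for the largest change were chosen among separated ones. The log2 change was -1.64 ± 0.17 (SE, adjusted p = 3.12e-07), and it was -1.88 in co-culture. In GL261 monoculture the libraries measured 45.8 and 34.3 CPM, then 30.2 and 34.05 CPM, a change of -0.32 that was not called (adjusted p = 0.117). Ndufs8 also fell in BMDM, by 0.80 on the log2 scale alone and by 0.95 in co-culture.

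Among accessory subunits, Ndufa5 fell furthest in co-cultured BV2 cells. Its libraries measured 59.8 and 64.7 CPM in normoxia and 14.6 and 14.5 CPM in hypoxia, a log2 change of -2.10 ± 0.14 (adjusted p = 3.52e-09). Ndufa12, an accessory subunit of the peripheral arm, fell furthest in BMDM monoculture. There it measured 39.2 and 42.5 CPM in normoxia and 19.4 and 16.0 CPM in hypoxia (log2 change -1.21 ± 0.21, adjusted p = 0.00243), and it was also called lower in both BV2 and both GL261 comparisons. In GL261 the largest falls were Ndufa3 alone (-1.22) and Ndufb7 in co-culture, from 96.96 and 91.1 CPM to 27.1 and 27.2 CPM (-1.79 ± 0.17, adjusted p = 1.1e-05).

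A few complex I subunits rose, and Ndufv3 did so in 4 of the 6 comparisons. Ndufv3 (ENSMUSG00000024038, chr17:31520115-31531331, plus strand) encodes an accessory subunit of the NADH-binding module. In BV2 monoculture it measured 55.5 and 46.4 CPM in normoxia and 165 and 137 CPM in hypoxia, a rise of 1.56 ± 0.15 in log2 (adjusted p = 1.57e-07). In co-culture it measured 55.5 and 73.8 CPM, then 132 and 150.7 CPM (1.13 ± 0.15, adjusted p = 5.24e-06). BMDM rose as well, from 78.7 and 77.3 CPM to 174 and 164 CPM alone (1.12 ± 0.16, adjusted p = 0.001) and from 82.2, 98.0 and 93.0 CPM to 177, 202 and 159 CPM in co-culture (0.98 ± 0.13, adjusted p = 0.000314). In each of these 4 comparisons the groups were fully separated, which was a condition for naming a gene by its largest change. In GL261 monoculture the normoxic libraries, 73.7 and 48.5 CPM, overlapped the hypoxic ones, 69.4 and 84.0 CPM, and neither GL261 comparison called the gene (adjusted p = 0.16 and 0.62).

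The 250 bases before the RefSeq start of Ndufv3 are shown because Ndufv3 had the largest rise of any complex I gene in BV2 and BMDM cells. The sequence covers chr17:31519865-31520114 of GRCm38 on the plus strand, and capitals mark GCGTG, one form of the core motif read by hypoxia-inducible factor, which is found once on each strand, 100 to 96 and 60 to 56 bases before the start.
Ndufv3: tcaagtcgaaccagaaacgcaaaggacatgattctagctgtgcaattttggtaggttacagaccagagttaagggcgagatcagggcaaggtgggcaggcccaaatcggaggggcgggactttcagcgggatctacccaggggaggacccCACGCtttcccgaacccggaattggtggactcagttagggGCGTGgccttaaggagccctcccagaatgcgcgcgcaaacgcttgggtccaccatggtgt

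Ndufa6, another accessory subunit, was also called higher in BMDM. It is named here after its values were seen, because it is one of 2 complex I genes that rose in both BMDM comparisons. Its libraries measured 41.2 and 41.3 CPM in normoxia and 55.3 and 56.3 CPM in hypoxia in monoculture (log2 change 0.44 ± 0.14, adjusted p = 0.0452). In GL261 it fell, by 0.52 on the log2 scale alone (adjusted p = 0.0394) and by 0.89 in co-culture. Ndufb9, also named after its values were seen, was called higher in BMDM co-culture, from 21.6, 23.4 and 26.0 CPM to 35.6, 33.9 and 27.4 CPM (0.45 ± 0.15, adjusted p = 0.0411).

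Complex II, succinate dehydrogenase, has 4 subunits and links the chain to the citric acid cycle. All 4 fell in BV2 monoculture (median -0.80) and 3 in co-culture, against 1 in GL261 monoculture, 3 in GL261 co-culture and none in either BMDM comparison (edgeR quasi-likelihood test). Sdhb, the iron-sulfur subunit, measured 129 and 112 CPM in normoxic BV2 monoculture and 61.9 and 50.7 CPM in hypoxia (log2 change -1.10 ± 0.12, adjusted p = 1e-06). Sdhd, a membrane anchor, measured 259 and 209.6 CPM, then 113 and 110.3 CPM (-1.07 ± 0.12, adjusted p = 9.38e-07). The oxygen levels did not overlap for either gene.

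Sdha, the flavoprotein where succinate is oxidised (ENSMUSG00000021577, chr13:74322254-74350280), changed least in BV2 cells. It measured 395 and 396 CPM in normoxia and 307 and 298 CPM in hypoxia, a fall of 0.39 ± 0.11 in log2 (adjusted p = 0.00458), and it was not called in co-culture (-0.17, adjusted p = 0.173). In GL261 monoculture its libraries measured 70.7 and 75.3 CPM, then 85.0 and 82.2 CPM. That difference of 0.20 was not called either (adjusted p = 0.188). The GL261 subunit that fell in monoculture was Sdhc, the other anchor, from 129.6 and 97.01 CPM to 52.1 and 63.3 CPM (-0.97 ± 0.16, adjusted p = 0.000517).

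Complex III moves electrons to cytochrome c. Of its 8 subunits 7 fell in BV2 monoculture, 8 in BV2 co-culture, 5 and 6 in GL261, and 2 and 3 in BMDM. Uqcr10, a small subunit, was one of the 9 genes called lower in all 6 comparisons. It measured 108.5 and 86.5 CPM in normoxic BV2 monoculture and 55.6 and 41.5 CPM in hypoxia (-1.01 ± 0.15, adjusted p = 2.39e-05), and its smallest called change was -0.49 in BMDM monoculture (adjusted p = 0.0468).

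Uqcr11, another small subunit, had the largest complex III fall in GL261. It measured 162.5 and 110.1 CPM in normoxic monoculture against 40.0 and 40.2 CPM in hypoxia (-1.77 ± 0.18, adjusted p = 2.58e-05), and 165 and 150.6 CPM against 32.2 and 27.5 CPM in co-culture (-2.40 ± 0.18, adjusted p = 2.57e-06). In BV2 monoculture the same gene fell by 0.33 on the log2 scale (adjusted p = 0.044). Uqcrc1, a core protein of the complex, had another order of cell types: it fell in BMDM monoculture from 231 and 216 CPM to 151.4 and 153 CPM (-0.56, adjusted p = 0.0271) and in BV2 cells, and was not called in GL261 (-0.15 alone and -0.33 in co-culture).

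Complex IV divides into 11 subunits used in most tissues, 8 isoforms of particular tissues or conditions, and Cox7a2l, which helps join complexes III and IV into supercomplexes. The common subunits fell: 9 of 11 in BV2 monoculture (median -0.47), 10 in BV2 co-culture (-0.88), 11 in both GL261 comparisons (-1.001 and -1.44), 3 in BMDM monoculture and 6 in BMDM co-culture. None of the 11 rose in any of the 6 comparisons.

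Cox5a, a subunit of the matrix side, measured 202 and 184.5 CPM in normoxic BV2 monoculture and 86.2 and 65.4 CPM in hypoxia (-1.35 ± 0.14, adjusted p = 3.73e-07). It also fell in GL261 (-1.001 and -1.44) and BMDM (-0.69 and -0.89). Cox6b1, on the intermembrane side, fell most in GL261, from 258 and 164 CPM to 68.7 and 66.6 CPM alone (-1.64 ± 0.20, adjusted p = 9.3e-05) and from 246 and 226 CPM to 55.7 and 42.3 CPM in co-culture (-2.27 ± 0.21, adjusted p = 8.22e-06). Cox6a1 separated the lines: it fell in GL261 monoculture from 336 and 279 CPM to 193 and 186 CPM (-0.70 ± 0.13, adjusted p = 0.00147) and was not called in BV2 cells (0.20 alone and 0.08 in co-culture).

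Ndufa4, now known as a complex IV subunit (ENSMUSG00000029632, chr6:11900292-11907497), fell in all 6 comparisons. It measured 129 and 122 CPM in normoxic BV2 monoculture and 57.2 and 49.4 CPM in hypoxia (-1.24 ± 0.13, adjusted p = 4.78e-07). In GL261 monoculture it measured 171 and 127 CPM, then 58.5 and 52.0 CPM (-1.43, adjusted p = 4.25e-05), and in BMDM monoculture 74.3 and 65.8 CPM, then 37.97 and 36.4 CPM (-0.91 ± 0.21, adjusted p = 0.0109). Each hypoxic library was below each normoxic one.

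Its paralogue Ndufa4l2 (ENSMUSG00000040280, chr10:127514967-127517154, plus strand) appeared in hypoxic BMDM. It had 0 counts in both normoxic monoculture libraries and measured 2.69 and 1.45 CPM in hypoxia, 58 counts in all. Against a floor of 3 counts over the normoxic group, which covers counting error only, it was at least 19.6-fold higher (adjusted p = 0.00152). In co-culture it measured 0.0618, 0.330 and 0.289 CPM in normoxia and 1.71, 1.79 and 2.88 CPM in hypoxia (3.22 ± 0.60, adjusted p = 0.00254). It was at 0 in all 4 BV2 monoculture libraries and was not called in GL261, where monoculture measured 1.13 and 1.17 CPM, then 0.992 and 2.19 CPM.

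Cox4i2 (ENSMUSG00000009876, chr2:152754173-152765037, plus strand), the low-oxygen and lung isoform of Cox4i1, was also raised in BMDM. In monoculture it measured 0.274 and 0.441 CPM in normoxia and 4.58 and 1.93 CPM in hypoxia (3.17 ± 0.73, adjusted p = 0.011), and in co-culture 0.988, 1.19 and 1.54 CPM, then 9.54, 2.38 and 8.98 CPM (2.49 ± 0.53, adjusted p = 0.00428). In BV2 and GL261 libraries it was too low to test. Leaving out normoxic library 1, normoxic library 2 or hypoxic library 1 ended the monoculture call (adjusted p = 0.1, 0.0566 and 0.0839). The common form Cox4i1 was not called in either BMDM comparison (-0.10 and -0.35) and fell in GL261 (-0.62 and -0.98), where the monoculture call was lost without normoxic library 1 (adjusted p = 0.0665).

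Cox6a2, the heart and muscle isoform, was called higher in 5 of the 6 comparisons. In BMDM monoculture it measured 0.547 and 0.756 CPM, then 13.7 and 7.46 CPM (4.01 ± 0.51, adjusted p = 0.0005), and in BMDM co-culture 0.618, 0.991 and 1.06 CPM, then 15.5, 37.1 and 20.9 CPM (4.80 ± 0.42, adjusted p = 2.67e-05). In co-cultured BV2 cells it measured 0.553 and 0.0533 CPM, then 3.23 and 2.51 CPM (3.35 ± 0.65, adjusted p = 0.000261). In all 3 settings the hypoxic libraries lay above every normoxic one. It rose in GL261 co-culture (2.87 ± 0.63, adjusted p = 0.00272) and in GL261 monoculture from 2.15 and 0.427 CPM to 3.74 and 3.80 CPM (1.54 ± 0.50, adjusted p = 0.0262). The GL261 monoculture call was lost without normoxic library 2 (0.84, adjusted p = 0.0968) and without hypoxic library 1 (1.58, adjusted p = 0.0549). BV2 monoculture, the sixth comparison, measured 1.02 and 0.312 CPM, then 2.24 and 1.10 CPM (1.30, adjusted p = 0.0509). It was called with DESeq2 size factors (adjusted p = 0.0472), without a filter (0.00187), with the replicate block (0.0161), in the compared groups alone (0.0259), and without normoxic library 1 (0.0107) or hypoxic library 2 (0.0206).

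Isoforms of testis fell where they were present. Cox6b2 (ENSMUSG00000051811, chr7:4751792-4753094) measured 6.70 and 7.20 CPM in normoxic GL261 monoculture and 0.763 and 1.34 CPM in hypoxia (-2.75 ± 0.36, adjusted p = 0.000145), and 2.08 and 1.83 CPM, then 0.291 and 0.345 CPM, in BMDM monoculture (-2.58 ± 0.66, adjusted p = 0.0176). The BMDM call was lost without any one library (adjusted p 0.0501 to 0.103). Cox7b2 (ENSMUSG00000049387, chr5:71442824-71548205), named after its values were seen, measured 21.4 and 14.0 CPM in normoxic GL261 monoculture and 8.51 and 7.07 CPM in hypoxia (-1.18 ± 0.22, adjusted p = 0.00124). It was at 0 in the BV2 and BMDM monocultures.

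Cox7a1 (ENSMUSG00000074218, chr7:30184144-30186078, plus strand), the heart and muscle form of Cox7a2, was called in BV2 monoculture and in no other first-experiment comparison. It measured 0.935 and 0.891 CPM, then 2.48 and 3.13 CPM (1.61 ± 0.33, adjusted p = 0.00053), and in co-culture 1.18 and 1.97 CPM, then 2.39 and 3.03 CPM (0.75, adjusted p = 0.0508). The common form Cox7a2 fell in BV2 (-0.51 and -0.88) and GL261 (-1.47 and -2.27).

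Cox7a2l (ENSMUSG00000024248, chr17:83501918-83517330) is abundant, unlike the isoforms. In BMDM it measured 86.9 and 79.1 CPM, then 146.5 and 157 CPM, in monoculture (0.87 ± 0.21, adjusted p = 0.0142), and 107.6, 72.0 and 91.8 CPM, then 141.5, 164 and 114.5 CPM, in co-culture (0.63 ± 0.17, adjusted p = 0.0159). In BV2 monoculture it measured 95.2 and 71.3 CPM, then 109 and 101.5 CPM (0.34 ± 0.13, adjusted p = 0.0331). In BMDM the monoculture call was lost without any one library (adjusted p 0.0658 to 0.141), and the co-culture call without normoxic library 2 (0.0538) or hypoxic library 2 (0.0508). The BV2 call was lost without normoxic library 2 (0.14, adjusted p = 0.427) and without hypoxic library 1 (0.31, adjusted p = 0.103). Of its 75-base words 10.42% also occur in another gene, Gm6969, so part of its count could belong there.

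The promoters of Cox7a1 and Cox7a2l are shown because both rose while the common complex IV subunits fell, and they differ in the searched letters. The first covers chr7:30183921-30184170 on the plus strand. Capitals mark GCGTG 53 to 49 bases before the RefSeq start on the opposite strand and 25 to 21 bases before it on the coding strand. The GENCODE start is at 30184144, so the coding-strand match lies inside the annotated gene. The second covers chr17:83514334-83514583 on the minus strand and holds neither ACGTG nor GCGTG, so it has no capitals. This window lies inside the GENCODE gene, and the bases before the GENCODE start at 83517330 are not part of it.
Cox7a1: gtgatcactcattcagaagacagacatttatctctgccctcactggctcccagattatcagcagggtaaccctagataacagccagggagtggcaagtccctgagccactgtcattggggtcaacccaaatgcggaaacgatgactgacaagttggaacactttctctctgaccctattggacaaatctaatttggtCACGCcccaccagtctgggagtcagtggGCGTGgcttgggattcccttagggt
Cox7a2l: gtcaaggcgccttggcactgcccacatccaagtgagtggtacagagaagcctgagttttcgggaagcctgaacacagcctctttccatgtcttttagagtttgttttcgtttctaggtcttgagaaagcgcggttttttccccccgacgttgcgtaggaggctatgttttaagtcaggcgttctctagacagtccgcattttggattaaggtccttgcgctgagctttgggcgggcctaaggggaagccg

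Set against their common forms per kilobase of annotated exon, the isoforms remained minor in the first experiment. In BMDM monoculture Ndufa4l2 went from 0% to 6.98% ± 2.77 of the Ndufa4 level (SD, n = 2), Cox4i2 from 0.270% to 2.61% of Cox4i1, and Cox6a2 from 0.270% to 5.36% of Cox6a1. In BMDM co-culture the hypoxic values were 7.40%, 5.94% and 9.87%. Cox7a1 went from 1.73% to 7.73% of Cox7a2 in BV2 monoculture and from 4.81% to 14.1% in GL261 monoculture, where Cox7a1 itself was not called (log2 change 0.02) and Cox7a2 fell. Cox8b and Cox8c were at or near 0 throughout and were not tested.

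**Figure D3:**
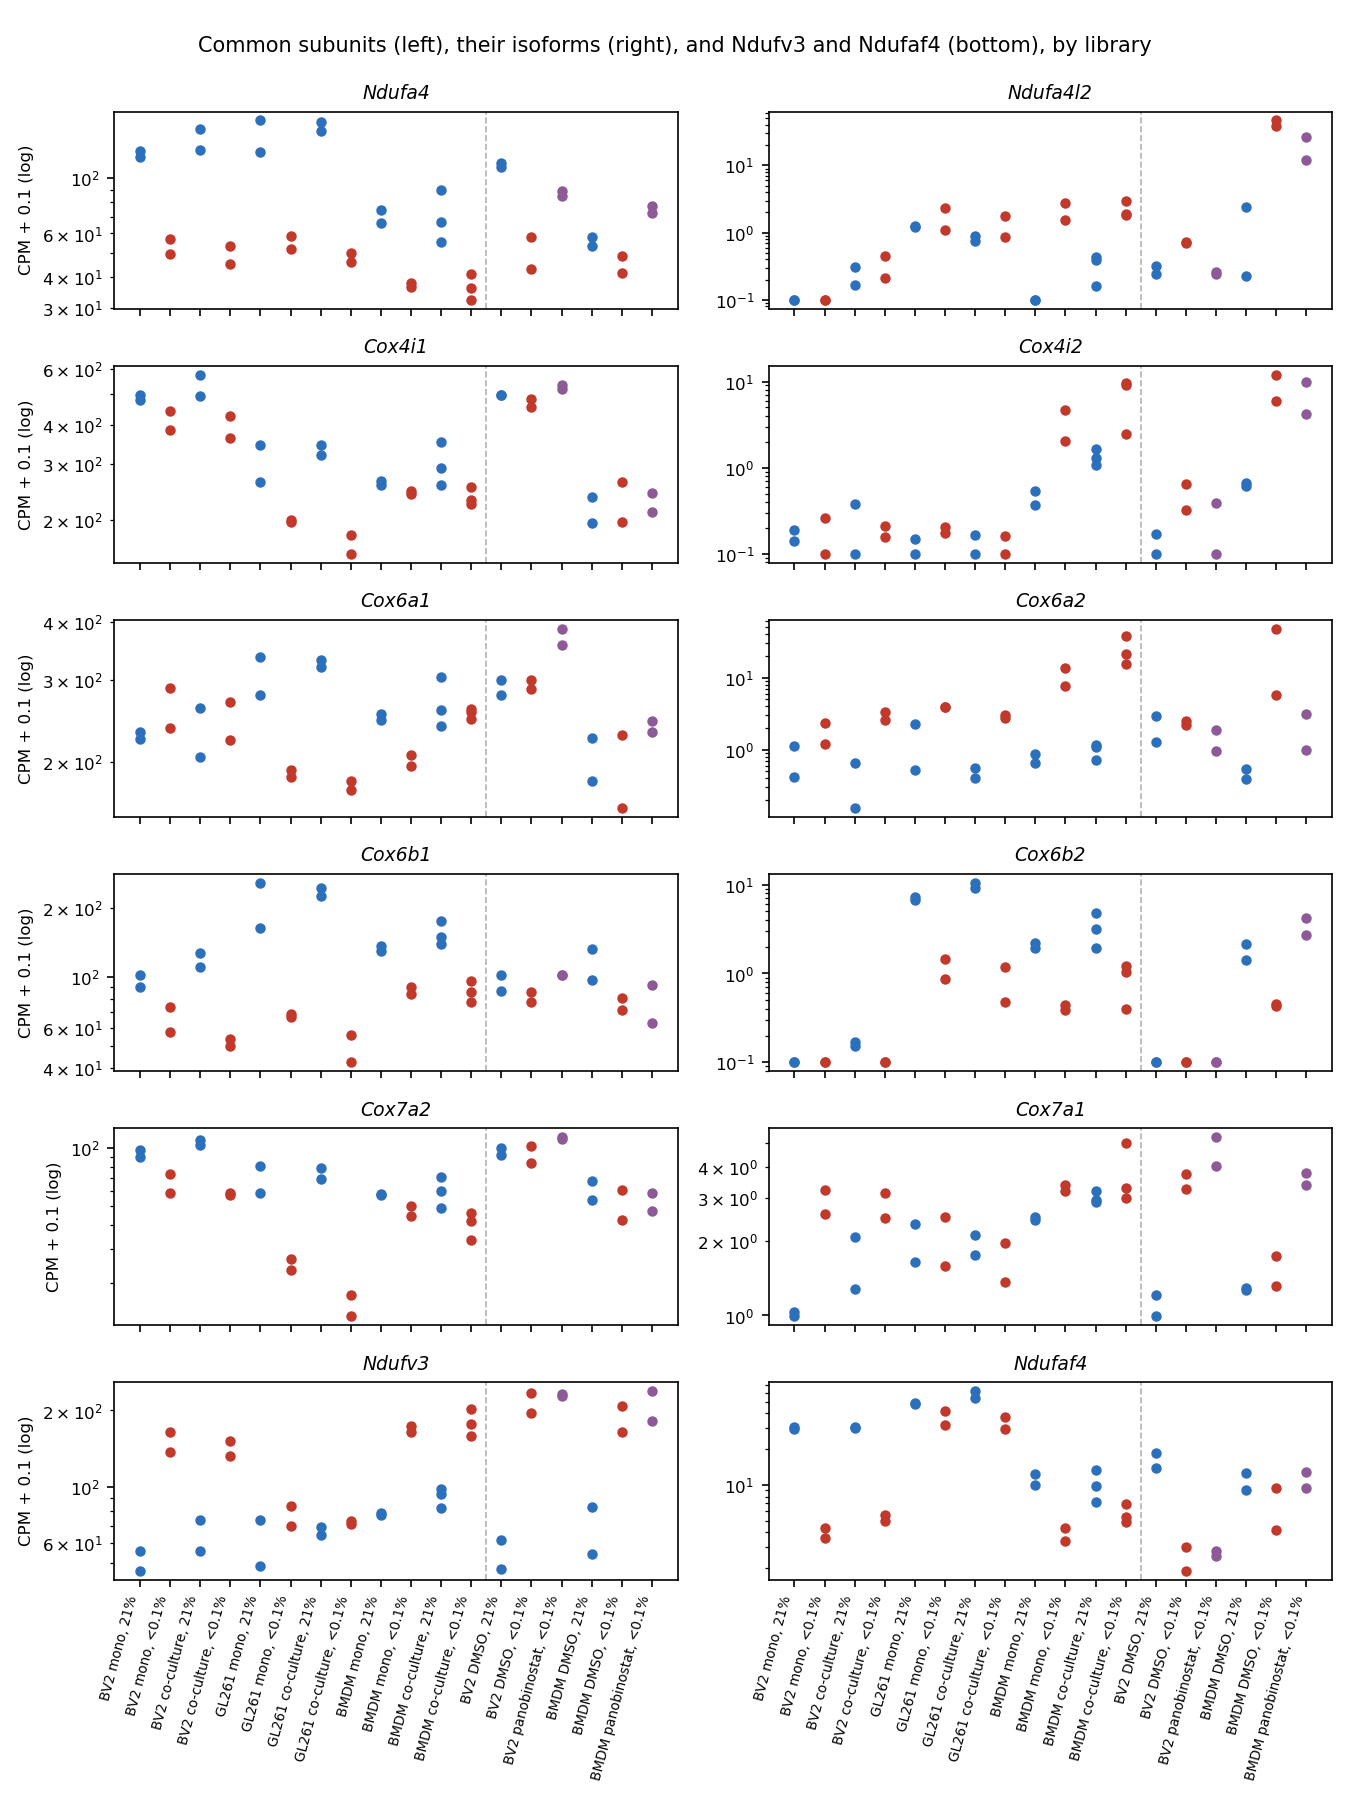
CPM plus 0.1 on a log axis (vertical) for each library by group (horizontal), common subunits on the left beside their isoforms on the right, with Ndufv3 and Ndufaf4 in the bottom row; blue is 21% oxygen, red below 0.1%, purple panobinostat below 0.1%, and the dashed line separates the experiments. Ndufa4 is lower in every hypoxic group of the first experiment, while Ndufa4l2, Cox4i2 and Cox6a2 are highest in hypoxic BMDM.

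Complex V, ATP synthase, fell across its parts. In BV2 monoculture 15 of 16 tested genes fell (median -0.66), in BV2 co-culture 16 (-1.05), and in GL261 15 in each comparison (-0.96 and -1.47); in BMDM 3 and 7 fell. None rose. The fall reached all parts of the enzyme in BV2 monoculture: 5 of 5 genes of the F1 head and central stalk (median -0.57), 4 of 4 of the peripheral stalk (-0.72), 4 of 4 of the membrane part (-0.71) and 2 of 3 of the c ring, the rotor (-1.22).

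Atp5g1, a c ring gene, measured 152 and 124 CPM in normoxic BV2 monoculture and 60.04 and 44.5 CPM in hypoxia (-1.40 ± 0.15, adjusted p = 6.12e-07). Atp5k, of the membrane part, fell most in BV2 co-culture, from 61.8 and 71.8 CPM to 20.4 and 18.5 CPM (-1.78 ± 0.14, adjusted p = 1.69e-08). Atp5e, the epsilon subunit of the central stalk, fell in all 6 comparisons: in GL261 monoculture from 104.8 and 69.2 CPM to 26.5 and 33.7 CPM (-1.53 ± 0.20, adjusted p = 0.000142) and in BMDM monoculture from 90.3 and 100.5 CPM to 62.2 and 54.5 CPM (-0.71 ± 0.19, adjusted p = 0.0206). Atp5a1, subunit alpha of the F1 head, was the most abundant complex V gene per kilobase in BV2 cells. It fell there from 1074 and 1019 CPM to 747 and 658 CPM (-0.57, adjusted p = 0.000397) and was not called in GL261 (-0.08 and -0.19). The ATP synthase inhibitor is listed in these tables as Atpif1, outside the name rule. Atpif1 fell in all 6 comparisons, by 1.25 and 1.92 on the log2 scale in BV2, 1.56 and 1.68 in GL261 and 1.11 and 1.34 in BMDM.

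The 13 factors held the largest falls in BV2 cells. In BV2 monoculture 10 of 13 fell (median -1.12) and in co-culture 10 (-1.33), against 4 (-0.39) and 7 (-0.61) in GL261 and 4 and 6 in BMDM. Ndufaf4 (ENSMUSG00000028261, chr4:24898083-24905001, plus strand), a complex I assembly factor, measured 30.5 and 29.5 CPM in normoxic BV2 monoculture and 4.25 and 3.51 CPM in hypoxia (-2.95 ± 0.16, adjusted p = 3.17e-10). In co-culture it measured 30.4 and 29.9 CPM, then 5.46 and 4.84 CPM (-2.55 ± 0.15, adjusted p = 9.72e-10). In GL261 monoculture it measured 48.0 and 48.7 CPM, then 32.0 and 41.8 CPM, and was not called (-0.39, adjusted p = 0.0674). In BMDM it fell, by 1.54 on the log2 scale alone and by 0.81 in co-culture. Its hypoxic monoculture level is over 4-fold higher in GL261 than in BV2 or BMDM, and the part of partner RNA in its co-culture values was not tested. Ndufaf2, a second complex I assembly factor, fell in all 6 comparisons (BV2 -2.06 and -1.96, GL261 -1.21 and -1.75, BMDM -1.22 and -0.89). Ndufaf8, of the same kind, fell in both lines, with GL261 changes of -1.26 and -1.46.

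The Ndufaf4 promoter is shown because no member fell further in BV2 monoculture. It covers chr4:24897833-24898082 on the plus strand, and capitals mark a match to the motif of nuclear respiratory factor 1, in which 1 inner base may be any letter and which reads alike on both strands, 113 to 104 bases before the start. The window holds neither ACGTG nor GCGTG.
Ndufaf4: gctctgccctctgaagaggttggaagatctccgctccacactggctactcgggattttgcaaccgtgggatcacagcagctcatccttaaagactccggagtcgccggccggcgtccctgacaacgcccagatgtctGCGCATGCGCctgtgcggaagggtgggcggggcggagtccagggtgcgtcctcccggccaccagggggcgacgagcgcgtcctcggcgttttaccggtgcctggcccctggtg

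RefSeq promoters on GRCm38.p6 were found for 80 of the 98 member identifiers and searched on both strands over the same 250 bases as 32851 promoters of all genes. The 18 without one include Ndufa4l2, Cox4i2, Cox6a2 and Cox4i1, so the promoters of these isoforms were not searched. The nuclear respiratory factor 1 motif occurred in 16.2% of member promoters (13 of 80) against 3.74% of all. ACGTG occurred in 21.2% (17) against 16.6%, GCGTG in 41.2% (33) against 28.2%, and either in 53.8% (43) against 38.6%. By complex, either motif was in 11 of 32 promoters of complex I, 3 of 3 of complex II and 3 of 5 of complex III. It was in 8 of 14 of complex IV, 10 of 14 of complex V and 8 of 12 of the factors. A match is a description of letters and not of a bound site.

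In the second experiment fewer members were called for hypoxia in BV2 cells. Replicates varied more there, with a biological coefficient of variation of 0.205 against 0.096 in first-experiment BV2. The part of this spread in the lower count was not tested. With DMSO 15 of 91 members fell and 4 rose, where 37.5% of all genes were called, 20.2% lower and 17.2% higher, so the member shares were near or below the background, and the median was -0.19. The share of counts in members overlapped between oxygen levels, 1.06% ± 0.170 and 0.869% ± 0.157. The count of 19 became 10 without hypoxic library 1. All 15 members that fell here also fell in both first-experiment BV2 comparisons, among them Ndufa12, Ndufs8, Sdhd, Cox5a, Ndufa4, Atp5g1, Ndufaf2 and Ndufaf4. The Sdhd call was lost without hypoxic library 1, hypoxic library 2 or normoxic library 2 (adjusted p 0.0584 to 0.256) and in the compared groups alone (0.11), and the Atp5g1 call without hypoxic library 1 or normoxic library 2 (0.0604 and 0.0538).

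Ndufv3 rose again, from 46.9 and 61.1 CPM to 196 and 234.5 CPM (1.99 ± 0.22, adjusted p = 0.000291), and it was the member called higher in all 3 BV2 comparisons. Ndufaf4 fell from 13.8 and 18.5 CPM to 1.81 and 2.91 CPM (-2.77 ± 0.35, adjusted p = 0.000531), and Ndufa4 from 111 and 115 CPM to 43.0 and 57.8 CPM (-1.17 ± 0.21, adjusted p = 0.0024). Cox7a1 rose from 0.894 and 1.11 CPM to 3.14 and 3.66 CPM (1.75 ± 0.41, adjusted p = 0.00872). Cox7a2l rose as well, from 72.1 and 67.6 CPM to 131 and 117 CPM (0.83 ± 0.21, adjusted p = 0.013; 0.0783 without hypoxic library 1), and so did Ndufa6 (0.59, adjusted p = 0.0491). The sets of libraries were separated for each of these genes, which was a condition for those named by their largest change, such as Ndufv3.

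In BMDM with DMSO no member was called by edgeR between oxygen levels, where 0.483% of all genes were called, 0.469% higher and 0.0134% lower. The biological coefficient of variation was 0.381 in this fit, which also held the panobinostat libraries, against 0.222 in first-experiment BMDM. At an unadjusted p below 0.05 there were 6 of 94 members, 4 higher and 2 lower, against 25.4% of all genes. DESeq2 called 6 members. Col1a1, the stromal collagen gene, measured 12666 to 13202 CPM in these normoxic libraries and 1514 and 8411 CPM in the hypoxic ones, against 44.6 to 407 CPM in first-experiment BMDM, and its part in the results was not tested. The summed macrophage markers were 20627 to 30052 CPM in normoxia and 3584 and 12132 CPM in hypoxia.

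Ndufa4l2 was higher in these hypoxic libraries than in any other library of the series. It measured 2.34 and 0.126 CPM in normoxia and 37.99 and 46.5 CPM in hypoxia (5.12 ± 1.09, adjusted p = 0.0809 with edgeR and 1.45e-05 with DESeq2). Both hypoxic libraries were far above both normoxic ones. Per kilobase Ndufa4l2 went from 2.90% (0.274% and 5.53%) to 119.7% (98.5% and 140.9%) of the Ndufa4 level. Cox4i2 measured 0.512 and 0.567 CPM, then 11.9 and 5.87 CPM (4.02 ± 0.67, adjusted p = 0.0677 with edgeR and 1.01e-05 with DESeq2). Cox6a2 measured 0.292 and 0.441 CPM, then 47.5 and 5.54 CPM, the hypoxic libraries differing widely (6.13, adjusted p = 0.0808). With the replicate number as a block all 3 were called (adjusted p = 0.0243, 0.0173 and 0.0222).

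The BV2 and GL261 lines were compared in normoxic level and in hypoxia effect, and the share of members called was below that of all genes for the level and near it for the effect. In normoxic monoculture 32 members were higher in BV2 and 25 lower, where 73.2% of all genes were called, 33.8% higher and 39.4% lower. The difference was one-sided in complex II, with 3 of 4 subunits higher in BV2 and none lower: Sdha averaged 395 CPM in BV2 and 67.2 CPM in GL261 (log2 difference 2.55 ± 0.11, adjusted p = 2.26e-13) and Sdhd 234 and 69.7 CPM (1.75). Ndufs8 averaged 117 CPM in BV2 and 36.9 CPM in GL261 (1.66), and Uqcrc1 266 and 92.8 CPM (1.52). Others were lower in BV2: Uqcrq, a small complex III subunit, averaged 82.4 CPM in BV2 and 220.1 CPM in GL261 (-1.42), and Cox6b1 95.8 and 194 CPM (-1.02).

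The difference between the hypoxia effects was called for 36 members, 22 with a higher change in BV2 and 14 with a lower one, against 37.4% of all genes, 18.7% in each direction. Complexes IV and V differed in one direction: 8 complex IV and 4 complex V genes had the higher change in BV2, that is a smaller fall or a rise, and none the lower. Complex II and the factors leaned the other way, with 3 subunits and 6 factors lower in BV2 and 0 subunits and 1 factor higher. Complex I held 7 higher and 4 lower, and complex III 2 and 1. Thus Uqcr11 differed by 1.53 ± 0.23 (adjusted p = 4.13e-05) and Cox6b1 by 1.19, while Ndufaf4 differed by -2.46 ± 0.23 (adjusted p = 2.80e-07), Ndufs8 by -1.22, Sdhd by -0.85 and Sdhb by -0.84. Ndufv3 differed by 1.34 ± 0.25 (adjusted p = 0.000308). The 13 mitochondrially encoded subunit genes leaned in the direction of complexes IV and V, with 10 higher in BV2 and none lower.

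**Figure D4:**
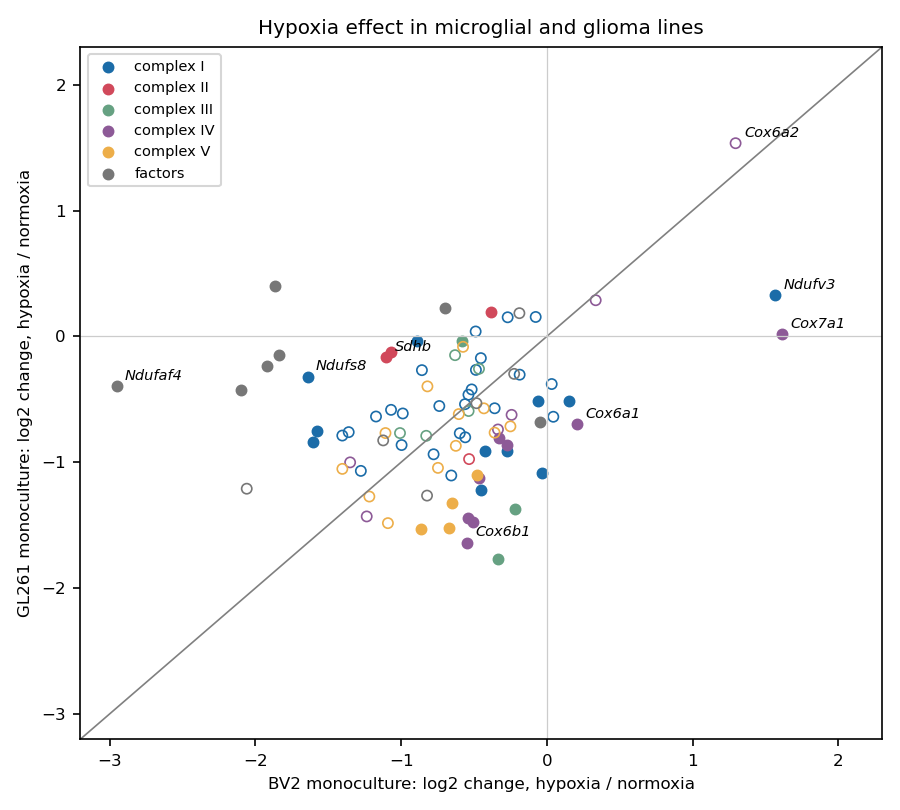
Log2 change in hypoxia for each member in BV2 monoculture (horizontal) and GL261 monoculture (vertical), coloured by complex, with the diagonal of equal change; filled points have a called difference between the lines (36 members). Filled complex IV and V points lie below the diagonal, toward a larger fall in GL261, and the factors Ndufaf4 and others lie above it, toward a larger fall in BV2.

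BMDM and BV2 cells were compared in normoxia with DMSO, in different media. Members were higher in BV2 in 27 cases and lower in 3, where 44.2% of all genes were called, 17.1% higher and 27.1% lower. Ndufb8, an accessory complex I subunit, averaged 168 CPM in BV2 and 52.6 CPM in BMDM (1.68), and Cox4i1 466 and 230.0 CPM (1.02). The 3 lower genes included Cox4i2 (-3.77) and Ndufa3 (-1.11). Cox4i2 had 0 and 1 counts in the BV2 libraries and 7 and 9 in BMDM, so the size of its difference is uncertain. Stromal and mural genes summed to 15554 and 12751 CPM in these BMDM libraries, and their part in the differences was not tested. The count of 30 became 11 and 15 without BMDM normoxic library 1 and 2, and 13 without BV2 normoxic library 2. The hypoxia effects of the 2 cell types with DMSO differed for no member with edgeR (0.664% of all genes called, 0.458% higher and 0.207% lower). They differed for 7 members at an unadjusted p below 0.05, against 18.6% of all genes, and for 2 with DESeq2.

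Per kilobase of annotated exon the most abundant members in normoxic monoculture were mostly complex IV subunits. The length joins all annotated exons of a gene, 619 bases for Cox8a and 702 for Cox6a1 against 4237 for Atp5b. The ranking therefore depends on the annotation. In BV2 cells Cox8a averaged 374 CPM per kilobase, followed by Atp5a1 with 334, Cox6a1 with 325 and Cox4i1 with 315. In GL261 Cox6a1 led with 438, then Cox8a with 347 and Cox6b1 with 298. In BMDM Cox6a1 averaged 356.5, Cox8a 226.0 and Cox6b1 188. Cox8a and Cox6a1 are the common liver-type forms of their subunits.

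Few members were called for co-culture, and the number depended on the fit. In normoxia 2 of 91 rose in BV2 cells with GL261 and none fell (14.9% of all genes called, 5.77% higher and 9.14% lower). These were Cox6c, from 115.5 and 112 CPM alone to 144 and 169 CPM in co-culture (0.46 ± 0.11, adjusted p = 0.0136), and Cox7b, from 160.5 and 146 CPM to 188 and 209 CPM (0.37 ± 0.11, adjusted p = 0.0383), both common complex IV subunits. The median over members was 0.20, and 77 of 91 values were above 0, a count that is not set against all genes here. At an unadjusted p below 0.05 there were 25 higher and 2 lower members, against 30.1% of all genes. The count fell to 0 or 1 without any one of the 4 libraries, and was 25 with the compared groups alone and 14 with a filter of 5 CPM.

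In hypoxia Uqcrh, a complex III subunit, was lower in co-cultured BV2 cells, with 93.1 and 77.9 CPM alone and 63.1 and 66.1 CPM in co-culture (-0.40 ± 0.12, adjusted p = 0.0284), where 15.7% of all genes were called, 7.57% lower and 8.13% higher. The complex II assembly factor Sdhaf1 was higher, with 3.01 and 2.42 CPM alone and 4.29 and 5.48 CPM in co-culture (0.85 ± 0.22, adjusted p = 0.0141), but it is over 4-fold higher in hypoxic GL261 than in hypoxic BV2 monoculture. The count of 2 became 13 without monoculture hypoxic library 2 and 4 without co-culture hypoxic library 1.

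The hypoxia effect itself differed between BV2 co-culture and monoculture for 2 members, Cox6c and Cox7b, each by -0.70 ± 0.16 (adjusted p = 0.0384 and 0.0397), where 2.19% of all genes were called, 1.03% lower and 1.16% higher. Of 91 members 74 had a lower value in co-culture (median -0.28), a count that is not set against all genes here. At an unadjusted p below 0.05 there were 23 lower and 2 higher members, against 19.9% of all genes. The count of 2 became 17 without monoculture hypoxic library 2, 4 without either co-culture hypoxic library, and 0 or 1 without any of the others. In hypoxia Cox6c measured 97.6 and 90.5 CPM alone and 76.7 and 83.1 CPM in co-culture, and Cox7b 113 and 98.1 CPM, then 81.0 and 87.4 CPM.

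No member was called by edgeR for co-culture in GL261 or BMDM. In GL261 normoxia 3 members had an unadjusted p below 0.05, against 8.47% of all genes (0.514% called, 0.323% higher and 0.191% lower, 0 members with DESeq2). In hypoxia there were 18, all lower (1.39% of all genes called, 0.889% higher and 0.5% lower, 1 member with DESeq2). In BMDM normoxia there were 4, against 12.9% of all genes (1.64% called, 1.57% higher and 0.0675% lower, 0 members with DESeq2). In BMDM hypoxia there were 12, against 23.8% of all genes (7.11% called, 4.06% higher and 3.05% lower, 3 members with DESeq2). The difference between hypoxia effects called 0 members in each (0% of all genes in both). At an unadjusted p below 0.05 there were 19 members in GL261, all lower, and 1 in BMDM, against 8.91% and 4.30% of all genes.

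Panobinostat was compared with DMSO in hypoxia. In BV2 cells 2 members rose and none fell, where 14.6% of all genes were called, 7.21% higher and 7.39% lower. Uqcr10 measured 61.5 and 64.9 CPM with DMSO and 122 and 97.6 CPM with panobinostat (0.79 ± 0.21, adjusted p = 0.0330), and Ndufa4 43.0 and 57.8 CPM, then 88.5 and 85.1 CPM (0.78 ± 0.21, adjusted p = 0.0337). The groups were separated for both, which was a condition for naming Uqcr10. Of 91 members 80 had a positive value (median 0.26, factors 0.49), a count that is not set against all genes here. At an unadjusted p below 0.05 there were 19 higher and 2 lower members, against 31.3% of all genes. The count was 0 or 1 without any one of the 4 libraries, and 20 with the replicate number as a block. The share of counts in members was 1.07% ± 0.0178, against 0.869% ± 0.157 with DMSO. Ndufv3 stayed high, at 228 and 233 CPM (0.10, not called).

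In BMDM no member was called by edgeR for panobinostat (0% of all genes). At an unadjusted p below 0.05 there were 11 of 94 members, 7 higher and 4 lower, against 25.9% of all genes. DESeq2 called 4 members. Ndufa4l2 measured 26.0 and 12.1 CPM with panobinostat against 37.99 and 46.5 CPM with DMSO (-1.15 ± 0.90, adjusted p = 0.46), and per kilobase 32.4% of the Ndufa4 level. The libraries of the groups did not overlap. Cox4i2 measured 9.76 and 4.07 CPM against 11.9 and 5.87 CPM (-0.37, adjusted p = 0.718). Cox6a2 measured 3.03 and 0.872 CPM against 47.5 and 5.54 CPM (-3.76, adjusted p = 0.111 with edgeR, 0.00476 with DESeq2 and 0.0351 with the replicate block). Cox6b2 measured 2.64 and 4.14 CPM against 0.357 and 0.332 CPM (3.26, adjusted p = 0.0636, 0.00197 and 0.0301). The groups were separated for both. The smallest adjusted p was 0.0585, for Ndufa12 (1.60). Summed macrophage markers were 1247 and 5694 CPM with panobinostat against 3584 and 12132 CPM with DMSO, and stromal and mural markers 7726 and 10591 CPM against 2319 and 8842 CPM. The genes of that list did not move together. Acta2, smooth muscle actin, measured 2055 and 2712 CPM against 153 and 779.9 CPM, and Tagln, Pdgfra and Rgs5 were also higher in both libraries. Col1a2 overlapped, with 2238 and 4107 CPM against 1002 and 4769 CPM, and so did Col3a1, Sparc, Pdgfrb, Dcn and Lum. The part of these cell types in the values was not tested. The panobinostat effect differed between BV2 and BMDM for no member (0.0251% of all genes called, 0.0188% higher and 0.00627% lower, 0 members with DESeq2). It differed for 3 members at an unadjusted p below 0.05, against 11.2% of all genes.

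Genes that work with the respiratory chain were read from lists. Of the 13 mitochondrially encoded subunits 12 were tested in the lines, where BV2 had 2 higher and 0 lower in monoculture (mt-Co1 0.64 and mt-Co2 0.57) and GL261 0 higher and 9 lower (median -1.51), with 12 lower in GL261 co-culture (-2.33). These transcripts were sampled by poly(A) selection. Cytochrome c and its complex III partner fell in BV2, with log2 changes of -1.54 for Cyc1 and -2.39 for Cycs in monoculture, and in BMDM (-0.63 and -1.198). In GL261 monoculture Cycs fell by 0.72 and Cyc1 was not called (-0.18).

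Of 8 genes linked to hypoxia-inducible factor and mitochondria 7 rose in each first-experiment comparison. Lonp1, the matrix protease that turns over complex IV subunits in hypoxia, rose by 1.68 and 2.07 in BV2, 1.62 and 1.85 in GL261 and 1.55 and 1.88 in BMDM. Pdk1, which restrains pyruvate entry into the citric acid cycle, rose by 2.26 and 2.18, 3.41 and 3.33, and 2.53 and 1.89. Iscu, an iron-sulfur scaffold, fell in BV2 (-1.50 and -1.36).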

How the data were processed

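The authors deposited raw gene counts per library, by Ensembl identifier, in 3 tables. Per the submitters' processing notes, reads were handled with Trimmomatic 0.36, STAR 2.6, SAMtools, HTSeq 0.9.1 and deepTools, and Picard 2.17.1 in part of the samples, on mm10; the annotation release and whether counting used strand are not given in the sources used here. The kit was stranded, and 16 members share over 5% of their 75-base words with other genes, so some of their reads could be split.

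Members and lists were chosen with earlier results of these data known. Symbols, positions and lengths came from GENCODE vM21 on GRCm38 (55141 of 55487 identifiers matched). Counts were fitted per cell type and experiment over all groups with edgeR 4.0.16 (TMM scaling, quasi-likelihood test, R 4.3.3), genes filtered at 10 counts with 15 in total, p-values adjusted by Benjamini-Hochberg over all tested genes. BV2 and GL261, and BV2 and BMDM, were joined for differences. CPM are TMM-scaled. Values are mean ± SD or log2 change ± SE. Named were isoform genes and, per complex and comparison, the called gene with the largest separated change at 10 CPM or more; others are said to be chosen later. Same-numbered BMDM co-culture libraries deviated together across oxygen (r = 0.504, 0.258 and 0.430). So did others, with r = 0.611 between hypoxic BMDM with DMSO and with panobinostat. Alternatives were DESeq2 1.42.0, its size factors, no filter, a filter of 5 CPM, only the compared groups, a replicate block and leaving out each library. No replicate pair agreed within counting noise. The fits were run on simulated counts with the same spread for every gene and fit, and with changes only in genes above 5 CPM. That run does not cover fits with a wider spread or isoforms at low counts. RefSeq promoters were searched for motifs.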

Additional observations from a re-analysis of the deposited data

Results flagged for a closer look

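Among the members, 2 had a hypoxia effect that differed between BV2 co-culture and monoculture by the interaction test, Cox6c and Cox7b, each with a log2 difference of -0.70. For 36 members the hypoxia effect differed between BV2 and GL261 monocultures by the same kind of test. Of those named above, the effect was higher in BV2 for Cox7a1 (1.70), Uqcr11 (1.53), Ndufv3 (1.34), Cox6b1 (1.19), Cox7a2 (1.06), Cox6a1 (1.00), Ndufa3 (0.87) and Atp5e (0.77). It was lower in BV2 for Ndufaf4 (-2.46), Ndufs8 (-1.22), Sdhd (-0.85), Sdhb (-0.84) and Sdha (-0.48). Single libraries were not screened for outliers, because no group had more than 3.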

How the results depend on the processing

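Of 1794 alternative values for single genes, 1691 kept their side of the threshold, 64 lost and 39 gained a call, and no called value reversed. Among the 1691, 60 that were called in neither setting changed sign. Counts of called members moved by over 1.5 times as follows. Fitting the compared groups alone gave 54 in BMDM monoculture hypoxia (main 23), 25 in BMDM co-culture hypoxia (46), 25 for BV2 co-culture in normoxia (2), 1 for it in hypoxia (2), 10 for panobinostat in BV2 (2) and 17 for BV2 against BMDM (30). DESeq2 gave 6 for BMDM with DMSO (0), 5 for BV2 co-culture in normoxia (2), 1 and 3 for GL261 and BMDM co-culture in hypoxia (0), 8 for the BV2 oxygen by co-culture term (2), 4 for panobinostat in BV2 (2), 4 in BMDM (0) and 2 for the BV2 and BMDM hypoxia effects (0). DESeq2 size factors in edgeR gave 5 for BV2 co-culture in normoxia. Without a filter on low counts, BMDM with DMSO had 5, BV2 co-culture 8 in normoxia and 14 in hypoxia, GL261 co-culture 1 and 3, BMDM co-culture 2 and 3, the BV2 oxygen by co-culture term 14, panobinostat 4 in BV2 and 4 in BMDM, the BV2 and BMDM hypoxia effects 3, and their panobinostat effects 1. A minimum of 5 CPM gave 14 for BV2 co-culture in normoxia, 4 for its oxygen by co-culture term, and a median of -1.16 for GL261 co-culture hypoxia (-0.996). Leaving out genes high in the partner gave 7 and 1 for BV2 co-culture in normoxia and hypoxia. The cause of these moves was not tested.

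With the replicate number as a block, the count was 29 for BV2 with DMSO (19), 5 for BMDM with DMSO (0), 2 for GL261 co-culture in hypoxia (0), 20 and 3 for panobinostat in BV2 and BMDM (2 and 0) and 1 for the BV2 and BMDM hypoxia effects (0). For hypoxia in BMDM co-culture it was 45 against 46, with 44 shared. Deviations of same-numbered libraries correlated on average by 0.0487 in BV2, 0.219 in GL261 and 0.167 in first-experiment BMDM. In the second experiment the averages were 0.338 in BV2 and 0.453 in BMDM. The sample titles number the replicates without stating a pairing.

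Leaving out 1 library at a time, which leaves a lone library in most groups whose spread is taken from the other groups, counts ran from 58 to 72 and 72 to 82 for hypoxia in BV2 alone and in co-culture, 43 to 61 and 67 to 72 in GL261, 5 to 9 and 28 to 49 in BMDM, 10 to 27 in BV2 with DMSO and 0 to 2 in BMDM with DMSO. For co-culture in normoxia and hypoxia they ran from 0 to 1 and 1 to 13 in BV2, stayed at 0 in GL261, and ran 0 to 0 and 0 to 2 in BMDM, and for the BV2 oxygen by co-culture term from 0 to 17. For panobinostat they ran from 0 to 1 in BV2. Level counts ran from 47 to 66 for BV2 against GL261 and 11 to 30 against BMDM, and hypoxia effect differences from 26 to 41 and 0 to 3. In panobinostat-treated BV2 cells the Uqcr10 call was lost in 4 of 4 such fits (adjusted p 0.0934 to 0.309) and the Ndufa4 call in 3. Isoforms near 1 CPM rest on few counts: 3 counts correspond to 0.11 to 0.311 CPM per library.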

Other observations

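Over all tested genes, 31% were lower and 30.9% higher in hypoxia in BV2 monoculture, 21.4% and 23.2% in GL261 monoculture and 10.6% and 13.3% in BMDM monoculture. Of 13 citric acid cycle genes, 12 fell and none rose in BV2 monoculture in hypoxia, 6 fell and 1 rose in GL261 monoculture, and 3 fell and none rose in BMDM monoculture. Idh3a, a subunit of NAD-dependent isocitrate dehydrogenase, was lower in all 6 first-experiment comparisons, with log2 changes of -2.34 and -2.46 in BV2, -0.88 and -0.94 in GL261 and -1.69 and -1.75 in BMDM (edgeR). Of 10 regulators of mitochondrial biogenesis, BV2 monoculture had 6 lower and 1 higher: Ppargc1b was lower (-1.84), Nrf1 (-1.14), Polrmt (-0.83) and Tfam (-0.67) were lower, and Ppargc1a was higher (1.19). In GL261 monoculture 1 of 9 was lower, Nrf1 (-1.01), and 1 was higher. A list of 32 assembly factors with other names had 23 lower and 2 higher in BV2 monoculture, and 7 lower and 12 higher in GL261 monoculture, where the lower share is near that of all genes. Cox10, a heme synthesis gene for complex IV, changed by -1.84 in BV2 and 0.65 in GL261 monoculture.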
